A study of Mus musculus with 10 samples.

Results

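The genes described here are the mouse solute carrier genes whose symbols begin with Slc4a, Slc8a, Slc9a, Slc12a, Slc13a, Slc17a, Slc20a, Slc26a or Slc34a. These 9 families move sodium, phosphate, bicarbonate, sulfate, chloride and related anions across cell membranes. The rule reads the symbol alone, and the members were 64 of the 22053 Ensembl gene identifiers in the deposited table. The prefixes also took in 3 genes that encode no transporter: Slc9a3r1 and Slc9a3r2 encode the scaffold proteins NHERF1 and NHERF2, and Slc4a1ap encodes kanadaptin, a binding partner of the anion exchanger AE1. RNA was sequenced from kidney glomeruli, the capillary tufts that filter the blood, in 5 libraries labelled Col4a3 wild-type and 5 labelled Col4a3 p.G799R. Col4a3 encodes the alpha 3 chain of type IV collagen, a component of the glomerular basement membrane, and p.G799R is a missense change in it. The sources used here do not give the zygosity, age, sex or strain of the mice or how glomeruli were isolated, and the labels name no treatment for either group. The labels do not state that the libraries of a group are separate mice, so the p-values reflect variation between libraries that may be only technical.

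The renal tubule takes back most of the salt, phosphate and bicarbonate that the glomerulus filters. In the proximal tubule, cotransporters at the luminal membrane draw phosphate, sulfate and dicarboxylates into the cell with sodium, a sodium-hydrogen exchanger secretes protons, and a sodium-bicarbonate cotransporter returns bicarbonate to the blood. The thick ascending limb and the distal convoluted tubule reabsorb sodium chloride through the cotransporters that loop diuretics and thiazides block, and the intercalated cells of the collecting duct exchange chloride for bicarbonate. Other members set the volume and pH of nearly every cell or work in endosomes, lysosomes and synaptic vesicles. The glomerular tuft itself is made of podocytes, endothelial cells and mesangial cells and holds no tubule cells. By the place where each gene is known to act, 17 members were assigned to the proximal tubule, 4 to the thick ascending limb, 2 to the distal convoluted and connecting tubule and 6 to intercalated cells, while 24 act in many cell types and 11 in nerve, muscle, testis or other tissues.

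The deposited values are FPKM, fragments scaled for transcript length and library total, and they summed to between 320720 and 340875 per library. Absolute depth is unknown. Markers of the labelled tissue were present, with Nphs1, which encodes nephrin of the podocyte slit diaphragm, at 233 to 282 FPKM in wild type and 327 to 435 FPKM in G799R. Tubule markers were also present in every library and were lower in G799R. The mean log2(FPKM + 1) of a marker list, its score, was lower in G799R by 2.50 for 28 proximal tubule markers, by 1.65 for 10 thick ascending limb markers, by 1.61 for 9 markers of the distal convoluted and connecting tubule, by 1.72 for 13 intercalated cell markers and by 1.83 for 7 principal cell markers. Of these lists, 26, 9, 8, 13 and 7 genes were called lower, and Mme, a proximal tubule marker that is also known from podocytes, was called higher. No marker of these lists was at 0 in all libraries. Scores of podocyte, endothelial and mesangial markers were higher by 0.67, 0.71 and 0.65. The exact two-sided permutation p was 0.0159 for the mesangial score and 0.0079 for the others, the smallest that 5 against 5 libraries can give. Summed FPKM of the proximal tubule markers ran from 7917 to 14760 in wild type and from 1092 to 2686 in G799R, and that of the podocyte markers from 3588 to 4290 and from 6027 to 7989. The part of these marker differences in the transporter results below was not tested. In tissue libraries of this kind, fewer cells of a type and less RNA per cell cannot be told apart.

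A member was tested when its mean over the 10 libraries was at least 0.5 FPKM, and it was called when limma's adjusted p, with Benjamini-Hochberg adjustment over all 13117 genes tested, was under 0.05. Log2 differences are G799R minus wild type on log2(FPKM + 1), a scale that understates changes of low genes, and folds are ratios of mean FPKM. Of the 64 members 46 were tested, and 22 of them were called lower in G799R, 11 higher and 13 neither. Among all tested genes 19.3% were called lower and 40.5% higher. The median log2 difference of the tested members was −0.26, with a range from −3.04 to 1.08, against 0.17 for all tested genes. The 2 groups of libraries did not overlap for 20 members that were lower and 8 that were higher, where 15.7% and 26.1% of all tested genes had no overlap. Since the filter uses the mean of all libraries, a gene that is high in 1 group can pass through that group, and these counts describe the tested members only.

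The calls are given next by the segment to which a member was assigned. Lower calls were made for 13 of 16 tested proximal tubule members (median −2.05), 2 of 3 of the thick ascending limb, 2 of 2 of the distal convoluted and connecting tubule and 3 of 6 of intercalated cells (median −0.89), and only Slc4a2 was called higher among these 27. Of the 17 tested members that act in many cell types, 9 were called higher and 2 lower, with a median of 0.34, against 40.5% and 19.3% of all tested genes. FPKM is a relative unit, so the fit was repeated with the joint score of the podocyte, endothelial and mesangial markers set equal in every library. This glomerular marker scaling moved the median of all genes from 0.17 to −0.43 and called 65.6% of them lower and 3.99% higher. Under it 33 of the 46 members were lower and 1, Slc9a9, was higher, with a median of −0.85. Median-of-ratios scaling, which put the median of all genes at 0.02, called 26 members lower and 7 higher. Among all 13117 tested genes it called 3346 lower and 3055 higher. Every lower call as deposited kept its sign and its call under both scalings, whereas the higher calls depended on them, and the scaled values are therefore given with the genes.

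**Figure D1:**
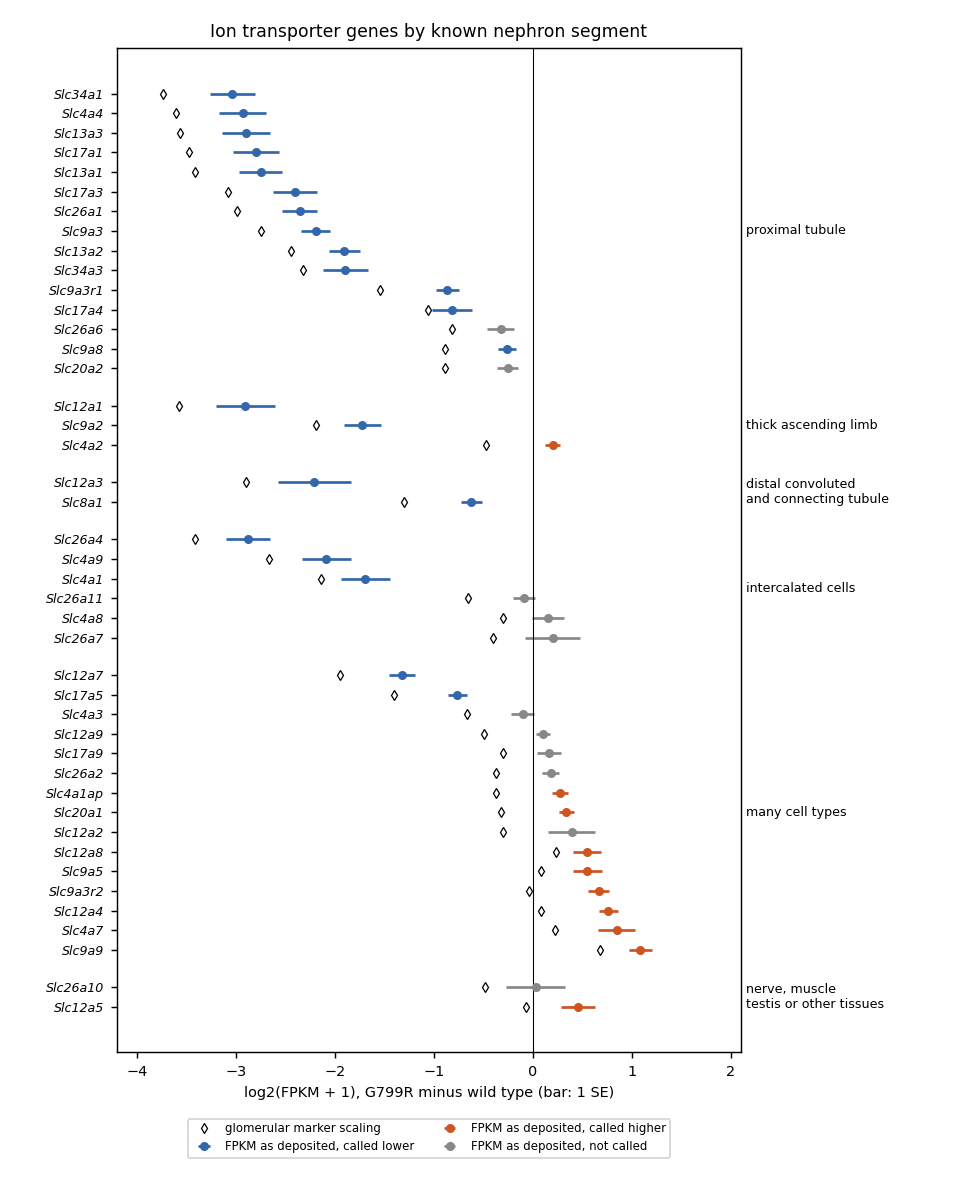
Log2 difference of 43 tested members, G799R minus wild type on log2(FPKM + 1), by known nephron segment, with bars of 1 SE; blue, orange and grey points are calls lower, higher and neither in FPKM as deposited, and open diamonds are the same genes after glomerular marker scaling. Most tubule genes lie far to the left, with Slc34a1 at −3.04. Genes of many cell types lie mostly around and above 0 as deposited, except Slc12a7 (−1.32) and Slc17a5 (−0.76). After scaling, genes of many cell types lie mostly below 0.

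In the plot of differences by segment, the points of the proximal tubule spread from −3.04 to −0.26, so members assigned to the same segment did not all move by a like amount. The share of all FPKM that the 64 members made up ran from 0.621% to 0.851% across the wild-type libraries and only from 0.297% to 0.345% across the G799R libraries. In wild type the largest single entry was Slc34a1, with 27.5% to 37.1% of the FPKM of the members, and in G799R it was Slc9a3r2, with 34.4% to 42.9%.

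Promoter windows of 4 members are shown because they stand for the patterns just described: Slc34a1 and Slc9a3 of the proximal tubule and Slc12a1 of the thick ascending limb were lower, and Slc12a4 of many cell types was higher. The sequences are from RefSeq (GRCm38.p6) and have each CG pair in capitals. They run 5′ to 3′ on the strand of the gene from 250 bases before to 50 bases after the RefSeq start. The windows are chr13:55399398-55399697 (plus strand), chr13:74121163-74121462 (plus strand), chr2:125152350-125152649 (plus strand) and chr8:105966066-105966365 (minus strand), in the order printed. The Slc34a1 window lies wholly inside the span that the GENCODE M21 annotation gives this gene, which begins at 55398187. Its RefSeq start is therefore not the GENCODE start.
Slc34a1: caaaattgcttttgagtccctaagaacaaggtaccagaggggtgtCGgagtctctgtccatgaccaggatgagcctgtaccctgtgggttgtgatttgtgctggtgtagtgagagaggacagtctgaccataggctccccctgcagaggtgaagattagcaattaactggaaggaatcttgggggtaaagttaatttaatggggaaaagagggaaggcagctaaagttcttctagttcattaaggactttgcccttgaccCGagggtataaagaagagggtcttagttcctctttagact
Slc9a3: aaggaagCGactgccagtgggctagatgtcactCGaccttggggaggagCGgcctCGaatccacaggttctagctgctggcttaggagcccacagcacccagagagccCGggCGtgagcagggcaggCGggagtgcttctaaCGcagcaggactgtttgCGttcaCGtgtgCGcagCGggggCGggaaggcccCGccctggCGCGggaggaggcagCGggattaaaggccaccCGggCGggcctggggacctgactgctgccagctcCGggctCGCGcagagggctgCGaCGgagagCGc
Slc12a1: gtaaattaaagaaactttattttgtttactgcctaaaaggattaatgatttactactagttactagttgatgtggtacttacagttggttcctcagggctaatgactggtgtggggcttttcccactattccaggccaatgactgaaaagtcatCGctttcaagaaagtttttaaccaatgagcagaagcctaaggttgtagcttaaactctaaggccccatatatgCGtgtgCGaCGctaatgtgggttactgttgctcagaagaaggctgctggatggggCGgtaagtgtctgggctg
Slc12a4: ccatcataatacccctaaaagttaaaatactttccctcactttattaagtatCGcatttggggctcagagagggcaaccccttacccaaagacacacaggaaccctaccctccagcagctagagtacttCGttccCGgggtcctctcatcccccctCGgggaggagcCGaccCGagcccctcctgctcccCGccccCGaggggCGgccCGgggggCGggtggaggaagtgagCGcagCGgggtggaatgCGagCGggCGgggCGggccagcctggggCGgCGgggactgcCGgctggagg
These windows held 2, 25, 5 and 20 CG pairs. The CG-poor window of Slc34a1 and the CG-rich one of Slc9a3 belong to genes of the same segment that both fell.

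A RefSeq window was found for 48 of the 64 members. The 17 matched members called lower had a median of 8 CG pairs (range 2 to 27), and 10 of them (58.8%) had fewer than 10. Among the 10 matched members called higher the median was 15.8, and 3 had fewer than 10. For comparison, 18.6% of the 10273 tested genes with a window had fewer than 10 CG pairs, with a median of 20. The share was 26.6% for tested genes called lower and 18.05% for those called higher. It was 55.6% for all genes with a window and 47.9% for all 48 matched members. The median was 17 for all tested genes called lower and 21 for those called higher. On either strand the letters GTTAAT, as in sites of the HNF1 factors, were in the windows of 3 of 48 members (6.25%), against 8.24% of all genes with a window and 5.89% of tested genes. The letters CAAAGT, as in sites of HNF4, were in 4 members (8.33%), against 16.1% of all genes and 14.3% of tested genes, and 3 of these 4 are among the 11 matched proximal tubule members called lower (27.3%). The letters TATAAA were in the windows of 12 members (25.0%) against 15.7% of all genes and 9.19% of tested genes. In the window of Slc34a1, GTTAAT starts 61 bases before the RefSeq start on the gene's strand and, read on the opposite strand, 89 bases before it. CAAAGT stands 5 bases before that start on the opposite strand, and TATAAA begins 16 bases after it. Such matches describe the letters and do not show that a factor binds.

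The sodium-phosphate cotransporters of the proximal tubule brush border were among the members with the largest differences. Slc34a1, which encodes NaPi-IIa, the main phosphate carrier of this membrane, stood at 603, 907, 651, 1040.5 and 855 FPKM in wild-type libraries 1 to 5 and 111, 132, 111, 90.5 and 54.6 FPKM in G799R libraries 1 to 5. The lowest wild-type library was thus far above the highest G799R library. Means were 811 ± 182 FPKM in wild type and 99.9 ± 29.3 FPKM in G799R (SD, n = 5 each), 8.12-fold lower, with a log2 difference of −3.04 ± 0.23 (SE) and a limma adjusted p of 2.5e-06. The gene (ENSMUSG00000021490) lies on chromosome 13 at 55398187 to 55415592 (GENCODE M21, GRCm38), and 11.7% of its exon bases overlap exons of Pfn3 on the other strand. Pfn3 had a mean of 2.34 FPKM, and the sources do not state whether fragments were counted by strand. Slc34a3, which encodes NaPi-IIc and in the mouse matters most in young animals, was scarcer, at 6.81, 3.47, 3.48, 6.13 and 8.54 FPKM in wild-type libraries 1 to 5 and 0.977, 0.871, 0.423, 1.16 and 0.315 FPKM in G799R libraries 1 to 5. It was 7.59-fold lower (log2 difference −1.89 ± 0.23 (SE), limma adjusted p = 4.8e-05), without overlap. The phosphate carrier PiT-2, encoded by Slc20a2, is the other known luminal route. Its values were 12.04, 10.6, 12.3, 8.57 and 11.8 FPKM in wild type and 10.2, 8.56, 10.1, 7.86 and 8.60 FPKM in G799R, the groups overlapped, and it was not called (log2 difference −0.26, limma adjusted p = 0.0559). Slc20a2 was called lower under glomerular marker scaling (−0.89), median-of-ratios scaling (−0.42, limma adjusted p = 0.0039) and quantile normalisation (−0.30, limma adjusted p = 0.0186). It was also called lower without wild-type library 4 (−0.34, limma adjusted p = 0.0098) or G799R library 1 or 3 (limma adjusted p = 0.0446 for each).

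Bicarbonate reabsorption rests on proton secretion by NHE3, encoded by Slc9a3, and on bicarbonate exit through NBCe1, encoded by Slc4a4. Slc9a3 had 10.6, 15.0, 12.5, 15.0 and 13.6 FPKM in wild-type libraries 1 to 5 and 2.55, 2.52, 2.76, 1.69 and 1.32 FPKM in G799R libraries 1 to 5. Each wild-type library exceeded each G799R library, and the mean fell 6.16-fold from 13.3 ± 1.87 to 2.17 ± 0.626 FPKM (SD, n = 5 each; log2 difference −2.19 ± 0.15 (SE), limma adjusted p = 2.0e-06). Slc4a4 stood at 90.2, 142, 119.7, 164 and 124 FPKM in wild-type libraries 1 to 5 and 19.1, 20.7, 19.8, 14.9 and 7.72 FPKM in G799R libraries 1 to 5. It was 7.79-fold lower, at 128 ± 27.4 FPKM in wild type and 16.4 ± 5.34 FPKM in G799R (SD, n = 5 each), with a log2 difference of −2.93 ± 0.24 (SE) and a limma adjusted p of 3.7e-06. For both genes, as for Slc34a1, G799R library 5 was the lowest, and that library also had the lowest proximal tubule score (3.90, against 4.43 to 4.80 in the other G799R libraries). NHE8, encoded by Slc9a8, is a further luminal exchanger that also resides in the Golgi. Its values were 8.54, 9.17, 8.496, 11.3 and 7.85 FPKM in wild type and 6.75, 7.16, 8.08, 7.57 and 7.24 FPKM in G799R, it overlapped between groups, and it was called lower by a small amount (log2 difference −0.26 ± 0.09 (SE), limma adjusted p = 0.031). The Slc9a8 call did not hold without wild-type library 2 or 4, or without G799R library 1, 2 or 5, with log2 differences from −0.26 to −0.19 and adjusted p from 0.057 to 0.069.

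Slc9a3r1, whose product NHERF1 tethers NaPi-IIa and NHE3 at the brush border, is tested below against other genes of its segment. It stood at 45.8, 59.6, 53.0, 68.1 and 65.2 FPKM in wild-type libraries 1 to 5 and 29.8, 31.4, 35.3, 33.98 and 26.7 FPKM in G799R libraries 1 to 5. The groups did not overlap, and the mean was 1.86-fold lower (log2 difference −0.86 ± 0.11 (SE), limma adjusted p = 8.0e-05). Pdzk1, another scaffold of this membrane, was 7.29-fold lower.

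**Figure D2:**
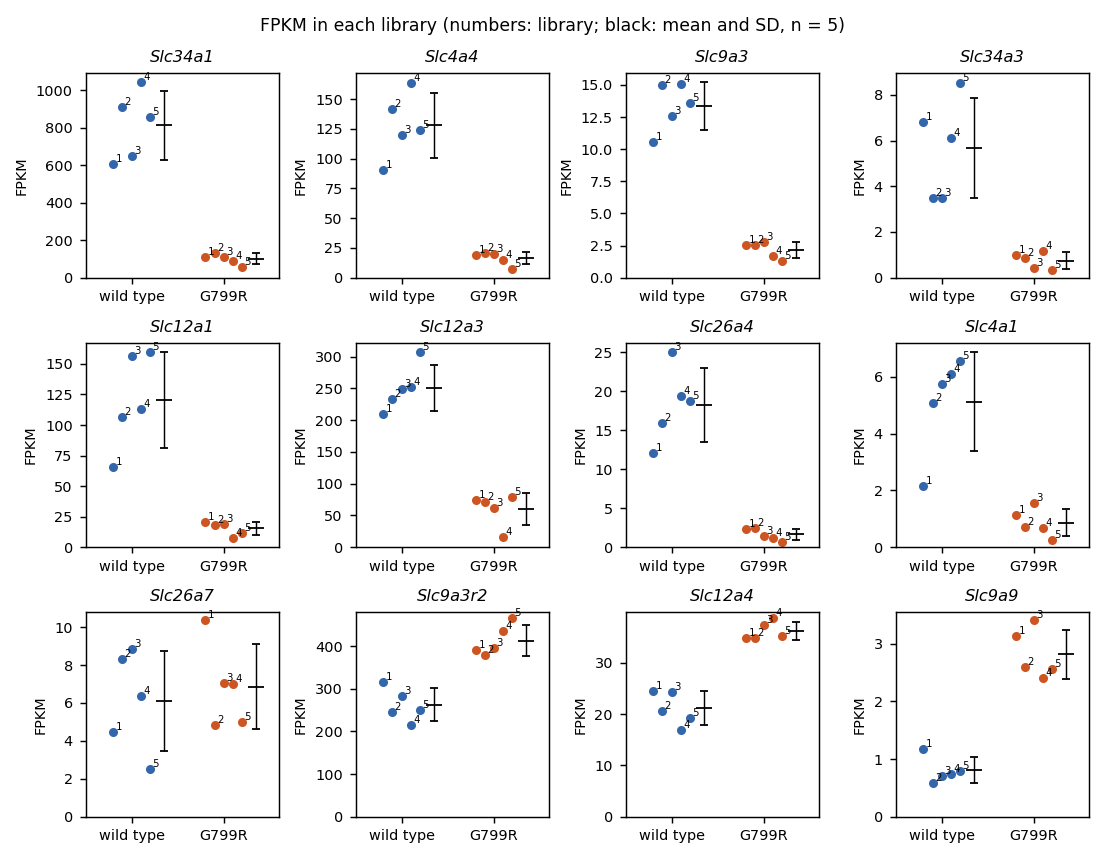
FPKM of 12 members in each library, with the library number beside each point and the mean with SD (n = 5) in black; every axis starts at 0. The tubule genes of the upper rows are separated by group without overlap, with Slc12a3 of G799R library 4 apart at 15.8 FPKM, while Slc26a7 overlaps and Slc9a3r2, Slc12a4 and Slc9a9 are higher in G799R in FPKM as deposited, of which only Slc9a9 was also called higher after glomerular marker scaling.

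Carriers of sulfate, dicarboxylates and organic anions fell alongside. Slc13a1, the luminal sodium-sulfate cotransporter, stood at 51.1, 88.3, 88.5, 104 and 88.0 FPKM in wild-type libraries 1 to 5 and 16.8, 12.4, 12.3, 10.2 and 6.95 FPKM in G799R libraries 1 to 5. Slc26a1, which exchanges sulfate at the basolateral side, stood at 24.7, 35.8, 28.1, 41.5 and 33.0 FPKM in wild-type libraries 1 to 5 and 5.51, 7.98, 5.66, 5.39 and 3.55 FPKM in G799R libraries 1 to 5. They were 7.17-fold and 5.81-fold lower (limma adjusted p = 3.4e-06 and 2.5e-06). Neither overlapped between groups. Of the sodium-dicarboxylate cotransporters, the basolateral Slc13a3 stood at 71.1, 135, 90.6, 114 and 127 FPKM in wild-type libraries 1 to 5 and 18.6, 14.0, 19.3, 8.83 and 8.88 FPKM in G799R libraries 1 to 5. The luminal Slc13a2, which recovers citrate, stood at 5.96, 12.00, 9.65, 11.4 and 8.98 FPKM in wild-type libraries 1 to 5 and 2.24, 1.96, 1.59, 1.58 and 1.53 FPKM in G799R libraries 1 to 5. Slc13a3 and Slc13a2 were 7.73-fold and 5.40-fold lower (limma adjusted p = 4.1e-06 and 4.0e-06), also without overlap.

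The Slc17a genes of the kidney were first described as phosphate transporters and are known for moving urate and other organic anions. Slc17a1 had 76.05, 142, 107, 172 and 108 FPKM in wild-type libraries 1 to 5 and 18.2, 18.5, 22.1, 13.4 and 10.03 FPKM in G799R libraries 1 to 5. Slc17a3 had 73.5, 111, 70.8, 134 and 71.6 FPKM in wild-type libraries 1 to 5 and 17.6, 18.3, 22.9, 12.2 and 11.4 FPKM in G799R libraries 1 to 5. Both were separated by group, 7.35-fold and 5.59-fold lower, with limma adjusted p of 4.0e-06 and 7.5e-06. Slc17a4 was low, at 0.468 to 2.31 FPKM in wild type and 0.042 to 0.471 FPKM in G799R, and was called lower (log2 difference −0.82, limma adjusted p = 0.0049) although the ranges touch. Its mean over all libraries was 0.638 FPKM, and it passed the filter only through wild type (mean 1.12 FPKM, against 0.160 FPKM in G799R). That selection favours a lower call. The remaining gene of this chromosome 13 cluster, Slc17a2, reached at most 0.027 FPKM in any library.

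Slc20a2 and Slc26a6 were among the 3 proximal tubule members that were not called. Slc26a6, a luminal exchanger of chloride with oxalate and other anions, stood at 3.39, 2.41, 3.204, 3.45 and 2.16 FPKM in wild type and 3.04, 1.70, 1.86, 1.96 and 2.08 FPKM in G799R (log2 difference −0.33, limma adjusted p = 0.0607). Under glomerular marker scaling, and under median-of-ratios scaling, all 16 tested proximal tubule members were called lower, including these 3.

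The cotransporters that diuretics block fell in both distal segments. Slc12a1, the target of loop diuretics in the thick ascending limb, stood at 65.3, 106, 157, 113 and 159.7 FPKM in wild-type libraries 1 to 5 and 20.2, 18.3, 19.2, 7.36 and 11.7 FPKM in G799R libraries 1 to 5. Means were 120.2 ± 39.2 FPKM in wild type and 15.4 ± 5.57 FPKM in G799R (SD, n = 5 each), 7.83-fold lower, with a log2 difference of −2.90 ± 0.29 (SE) and a limma adjusted p of 1.4e-05. The summed FPKM of the thick ascending limb markers ran from 971 to 1383 in wild type and from 146 to 364 in G799R, and their part in the fall was not tested. Slc12a1 was lowest in G799R library 4, where the score of the thick ascending limb markers was lowest too, at 2.23 against 2.91 to 3.04 in the other G799R libraries. Slc12a3, the thiazide target in the distal convoluted tubule, stood at 209, 234, 249, 251.9 and 307 FPKM in wild-type libraries 1 to 5 and 74.6, 70.6, 61.3, 15.8 and 79.3 FPKM in G799R libraries 1 to 5. It was 4.15-fold lower, at 250.2 ± 36.0 FPKM in wild type and 60.3 ± 25.8 FPKM in G799R (SD, n = 5 each; log2 difference −2.21 ± 0.37 (SE), limma adjusted p = 0.00043). The summed FPKM of the markers of its segment ran from 739 to 1697 in wild type and from 75.6 to 229.9 in G799R, and their part was not tested either. G799R library 4 was far below the other G799R libraries, and without it the log2 difference of Slc12a3 was −1.79 (limma adjusted p = 8.0e-06). No group overlap was seen for either gene with or without that library.

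Other exchangers of these segments differed in size. Slc9a2, the sodium-hydrogen exchanger NHE2, stood at 3.66, 5.87, 7.24, 5.505 and 7.38 FPKM in wild type and 1.49, 1.33, 1.32, 0.612 and 0.696 FPKM in G799R and was 5.44-fold lower (limma adjusted p = 1.8e-05). Slc8a1, the sodium-calcium exchanger NCX1 that returns calcium to the blood in the connecting tubule and is also known from heart and smooth muscle, stood at 33.0, 35.7, 41.3, 34.4 and 49.6 FPKM in wild type and 22.8, 22.4, 26.7, 24.3 and 27.0 FPKM in G799R. It was 1.57-fold lower (log2 difference −0.62 ± 0.11 (SE), limma adjusted p = 0.00059), without overlap. Slc4a2, the widely expressed anion exchanger AE2, went the other way, at 24.0, 20.95, 23.0, 19.1 and 23.3 FPKM in wild type and 24.2, 25.7, 27.9, 24.5 and 24.9 FPKM in G799R, a 1.15-fold rise (limma adjusted p = 0.035) that turned to −0.47 under glomerular marker scaling. The Slc4a2 call was also lost under median-of-ratios scaling (0.03), with G799R libraries 3 and 4 both left out (0.17, adjusted p = 0.12) and after quantile normalisation (0.0999, adjusted p = 0.23), and it did not hold without wild-type library 2 or 4, or without G799R library 2, 3 or 5 (0.15 to 0.21, adjusted p from 0.052 to 0.079). Of its exon bases 13.7% overlap Fastk on the other strand, at a mean of 22.2 FPKM. Slc9a4, the exchanger NHE4 of the thick ascending limb, was below the filter, at 0.139 to 0.482 FPKM in wild type and 0.032 to 0.108 FPKM in G799R.

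In intercalated cells, 3 exchangers fell and 3 were not called. Slc26a4, which encodes pendrin, the luminal chloride-bicarbonate exchanger of bicarbonate-secreting cells, stood at 12.03, 15.9, 25.0, 19.3 and 18.7 FPKM in wild-type libraries 1 to 5 and 2.33, 2.50, 1.41, 1.22 and 0.71 FPKM in G799R libraries 1 to 5. At 18.2 ± 4.77 FPKM in wild type and 1.63 ± 0.759 FPKM in G799R (SD, n = 5 each) it had the largest fold among the members in FPKM as deposited, 11.1-fold lower, with a log2 difference of −2.88 ± 0.22 (SE) and a limma adjusted p of 2.7e-06. Slc4a9, the exchanger AE4 of the same cells, stood at 10.2, 14.8, 19.8, 18.7 and 16.0 FPKM in wild type and 4.31, 4.005, 3.71, 2.21 and 1.24 FPKM in G799R and was 5.14-fold lower (limma adjusted p = 3.9e-05). Slc4a1, the exchanger AE1 of acid-secreting cells and of red blood cells, stood at 2.17, 5.07, 5.75, 6.08 and 6.56 FPKM in wild type and 1.12, 0.728, 1.55, 0.676 and 0.261 FPKM in G799R and was 5.91-fold lower (log2 difference −1.69 ± 0.25 (SE), limma adjusted p = 0.00019). None of these 3 overlapped between groups. The summed FPKM of the intercalated cell markers ran from 84.1 to 152.5 in wild type and from 12.01 to 34.5 in G799R, and their part was not tested.

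Slc4a1 is shared with red blood cells, so their markers were read beside it. Of 10 listed red blood cell markers 9 were found, 5 were tested and 1 was called lower, and the summed FPKM ran from 96.9 to 1219 in wild type and from 197 to 745 in G799R. The score differed by −0.50 (exact two-sided permutation p = 0.47). The marker called lower was Hbb-bt, with means of 31.7 FPKM in wild type and 3.63 FPKM in G799R (limma adjusted p = 0.0015), and 0 were called higher. Alas2 ran from 0.605 to 5.24 FPKM in wild type and from 1.43 to 4.10 FPKM in G799R and was not called (limma adjusted p = 0.98). Epb42, a membrane gene made in red cell precursors, was at 0.030 FPKM or less in every library. The part of red cell RNA in Slc4a1 was not tested beyond these values.

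The other exchangers of the group were not called. Slc26a7, a basolateral chloride-bicarbonate exchanger, stood at 4.46, 8.32, 8.85, 6.36 and 2.50 FPKM in wild type and 10.4, 4.84, 7.04, 7.02 and 4.98 FPKM in G799R. Slc26a11, an anion transporter of the same family, stood at 4.61, 3.88, 3.92, 3.97 and 4.99 FPKM in wild type and 4.49, 4.23, 2.95, 3.70 and 4.45 FPKM in G799R. Slc4a8, a sodium-driven chloride-bicarbonate exchanger, ran from 1.54 to 2.04 FPKM in wild type and 1.34 to 3.38 FPKM in G799R. Ranges overlapped for each, with limma adjusted p of 0.56, 0.48 and 0.42. All 3 genes are thus not separated by genotype at this spread in FPKM as deposited. Under glomerular marker scaling, where 65.6% of all tested genes were called lower, Slc26a11 was called lower (−0.65, limma adjusted p = 0.0012). Slc26a7 (−0.40) and Slc4a8 (−0.30) were not called under it.

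Tubule transporters were then read against other genes of the same segment. For each of the 25 tubule and intercalated cell members with a mean of at least 2 FPKM, the score of the markers of its segment, on log2(FPKM + 0.1), was subtracted in each library, a comparison that no scaling of the libraries can change much. Slc26a4, Slc4a1, Slc9a2, Slc13a2 and Slc34a3 reached that mean only through wild type, with G799R means from 0.749 to 1.78 FPKM, which favours lower values for them. The score adds the same noise to every gene, which limma does not model, so the exact two-sided permutation p over libraries, chosen after seeing the data and not adjusted for the 25 members, is given as well. Relative to proximal tubule markers limma called 94.5% of all tested genes higher and 0.335% lower, since most genes are not tubule genes. The corresponding shares were 92.0% and 1.49% for thick ascending limb markers, 89.7% and 1.94% for distal convoluted and connecting tubule markers, and 92.5% and 0.381% for intercalated cell markers.

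By this measure 9 of the 25 members were higher than their segment, 2 were lower and 14 were not called by limma. Slc12a1 was lower relative to the mean of the 10 thick ascending limb markers, with −0.89 ± 0.31 (SE) on the log2 scale (limma adjusted p = 0.0044, exact permutation p = 0.0079). Slc26a4 was lower relative to the mean of the 13 intercalated cell markers, with −1.09 ± 0.41 (SE) (limma adjusted p = 0.0089, exact permutation p = 0.0079). As stated above, Slc26a4 entered this comparison only through wild type (mean 18.2 FPKM, against 1.63 FPKM in G799R). Single markers varied around these means, and Tmem207 of the thick ascending limb went from 1.92 to 0.157 FPKM while Enox1 went from 0.804 to 0.614 FPKM and was not called. Each call was lost when every other marker was left out in 1 of 2 ways, at −0.54 for Slc12a1 (limma adjusted p = 0.0947) and −0.76 for Slc26a4 (limma adjusted p = 0.0902). Slc34a1 (−0.43), Slc4a4 (−0.38) and Slc12a3 (−0.38) were lower than their segment by the exact permutation test (p = 0.0079, 0.0079 and 0.016) but not by limma (adjusted p = 0.10, 0.14 and 0.33). For Slc34a1 limma did call the relative difference at a pseudocount of 1 (−0.54, adjusted p = 0.0366) and without G799R library 5 (−0.39, adjusted p = 0.0381). For Slc9a3, Slc26a1, Slc17a3 and Slc4a9 the relative difference was between −0.02 and 0.15 and not called, with an SE of 0.25 to 0.41.

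The members that were higher than their segment are those that fell little or not at all. Among them were Slc20a2 (2.35), Slc9a8 (2.34), Slc26a6 (2.18) and Slc9a3r1 (1.74) against proximal tubule markers, Slc4a2 (2.30) against thick ascending limb markers, Slc8a1 (1.21) against distal convoluted and connecting tubule markers, and Slc26a7 (2.64) and Slc26a11 (2.28) against intercalated cell markers. Each had an exact permutation p of 0.0079. They share this with most genes of the table, as the percentages above show.

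**Figure D3:**
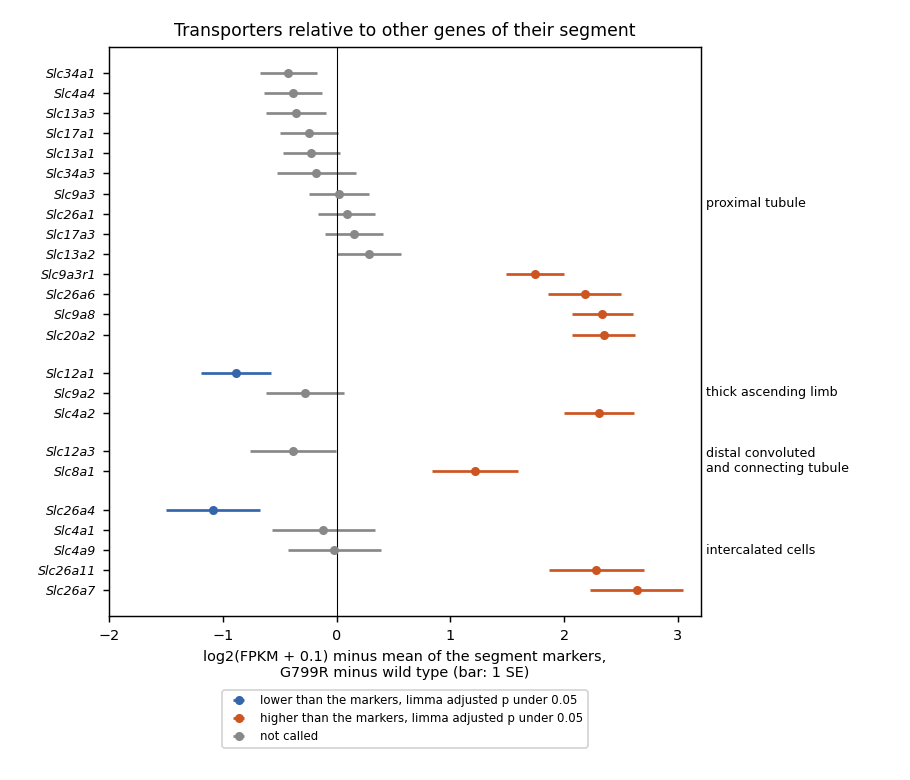
Log2 difference of 24 tubule members relative to the marker score of their own segment, G799R minus wild type on log2(FPKM + 0.1), with bars of 1 SE from limma; blue and orange points were called lower and higher by limma and grey points were not called. Slc12a1 at −0.89 and Slc26a4 at −1.09 lie below their segments, and 8 members from Slc8a1 at 1.21 to Slc26a7 at 2.64 lie above.

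**Figure D4:**
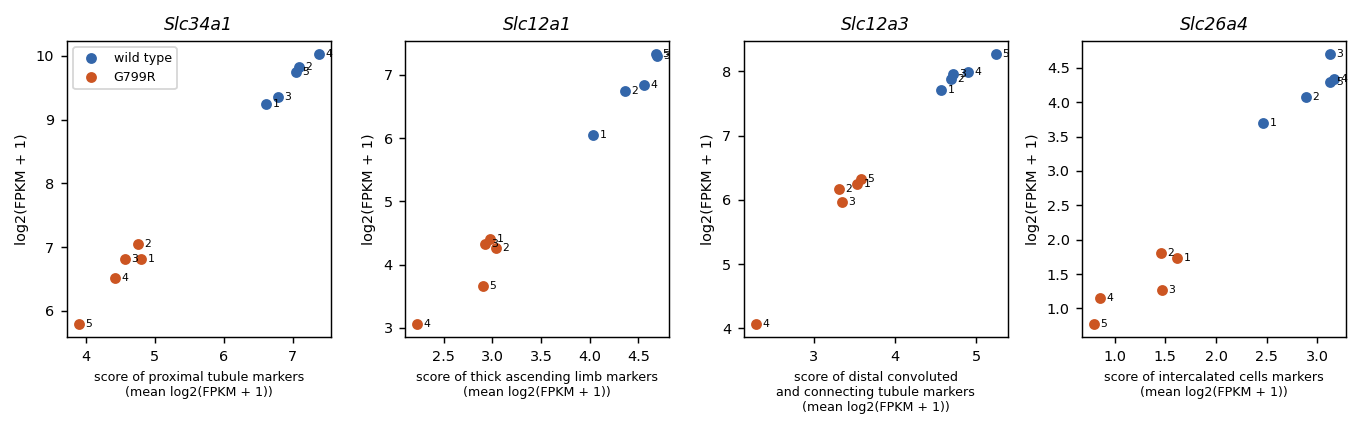
Level of Slc34a1, Slc12a1, Slc12a3 and Slc26a4 in each library, as log2(FPKM + 1), against the score of the markers of their segment, with the library number beside each point. In each panel the 5 wild-type libraries lie at the upper right and the 5 G799R libraries at the lower left; G799R library 5 is lowest for Slc34a1 and library 4 for Slc12a1 and Slc12a3, both on the transporter and on the marker axis.

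In the plot of transporters against marker scores, the G799R library lowest on the marker axis was also lowest for the transporter shown. Both axes come from the same libraries and share their scaling. For Slc26a4, libraries 4 and 5 were lowest on both axes. Members not shown in this plot did not all follow, as Slc8a1 was lowest in G799R library 2 (22.4 FPKM, against 24.3 FPKM in library 4).

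Ratios between members hardly depend on the scaling of a library and were tested by exact two-sided permutation, with Benjamini-Hochberg adjustment over 6 ratios. The log2 ratio of Slc4a4 to Slc34a1 was −2.66 ± 0.131 across wild-type libraries and −2.62 ± 0.125 across G799R libraries (SD, n = 5 each; exact permutation p = 0.60, adjusted p = 0.71), a difference smaller than the spread between libraries. The ratio of Slc34a1 to Slc12a1 was 2.79 ± 0.527 and 2.73 ± 0.538 (exact permutation p = 0.85), a difference well inside the spread. The ratio of Slc12a3 to Slc12a1 was 1.12 ± 0.371 in wild type, against 1.87 ± 0.598 in G799R (SD, n = 5 each), and this difference of 0.75 did not pass the test (exact permutation p = 0.056, adjusted p = 0.083). Without G799R library 4 that difference was 0.94 (exact permutation p = 0.024), and without wild-type library 1 it was 0.89 (exact permutation p = 0.032).

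Slc26a4 fell against Slc4a1, its counterpart in the other kind of intercalated cell, by a log2 ratio of −0.97, from 1.86 ± 0.387 to 0.890 ± 0.654 (SD, n = 5 each; exact permutation p = 0.024, adjusted p = 0.048), with overlapping libraries. Of the phosphate carriers, Slc20a1 rose against Slc20a2 by 0.64, from 0.352 ± 0.161 to 0.987 ± 0.135 (SD, n = 5 each; exact permutation p = 0.0079, adjusted p = 0.024), with no overlap of the libraries.

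Of the 17 tested members that act in many cell types, 9 were called higher in FPKM as deposited, where 40.5% of all tested genes were. Under glomerular marker scaling 1 was called higher and 8 lower, against 3.99% and 65.6% of all tested genes. The higher calls and their loss under scaling are thus shared with much of the table. Slc9a3r2, whose product NHERF2 binds the podocyte protein podocalyxin, was the most abundant of them, at 316, 245, 283, 215 and 250.8 FPKM in wild-type libraries 1 to 5 and 390.5, 378, 394, 435 and 466 FPKM in G799R libraries 1 to 5. It was 1.58-fold higher (262 ± 38.6 FPKM in wild type and 413 ± 36.9 FPKM in G799R, SD, n = 5 each; limma adjusted p = 0.00037) without overlap, and stood at −0.04 under glomerular marker scaling, where it was not called. The podocyte score was higher by 0.67 in the same libraries, and its part in the rise was not tested.

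Several less abundant members were also called higher as deposited, but not after glomerular marker scaling. Slc12a4, the potassium-chloride cotransporter KCC1, stood at 24.5, 20.6, 24.3, 16.9 and 19.3 FPKM in wild-type libraries 1 to 5 and 34.9, 34.8, 37.2, 38.7 and 35.2 FPKM in G799R libraries 1 to 5 and was 1.71-fold higher (limma adjusted p = 6.8e-05; 0.08 under glomerular marker scaling, not called). Its groups did not overlap as deposited. Slc4a7, the sodium-bicarbonate cotransporter NBCn1, stood at 9.74, 7.41, 9.54, 4.91 and 5.22 FPKM in wild type and 16.9, 10.7, 13.2, 12.3 and 15.8 FPKM in G799R, 1.87-fold higher without overlap (limma adjusted p = 0.0026; 0.22 under that scaling, not called). Slc20a1, the widespread phosphate carrier PiT-1, stood at 15.6, 14.7, 14.0, 12.6 and 13.4 FPKM in wild type and 19.6, 17.6, 17.7, 15.7 and 19.5 FPKM in G799R, 1.28-fold higher (limma adjusted p = 0.0037), and was called lower under that scaling (−0.32). The kanadaptin gene Slc4a1ap stood at 11.4, 10.8, 12.6, 10.4 and 13.9 FPKM in wild type and 14.2, 14.2, 13.9, 14.9 and 15.0 FPKM in G799R, 1.22-fold higher (limma adjusted p = 0.0116), and was likewise called lower under it (−0.38). Neither Slc20a1 nor Slc4a1ap was called under median-of-ratios scaling (0.17 and 0.11).

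Slc9a9, the endosomal sodium-hydrogen exchanger NHE9, was the single member called higher as deposited and under both scalings. It stood at 1.18, 0.588, 0.712, 0.740 and 0.799 FPKM in wild-type libraries 1 to 5 and 3.13, 2.60, 3.40, 2.40 and 2.56 FPKM in G799R libraries 1 to 5, so every G799R library was above every wild-type library. Means were 0.804 ± 0.225 FPKM in wild type and 2.82 ± 0.426 FPKM in G799R (SD, n = 5 each), 3.50-fold higher, with a log2 difference of 1.08 ± 0.12 (SE) and a limma adjusted p of 1.9e-05. Under glomerular marker scaling the difference was 0.67 (limma adjusted p = 0.0004). Slc9a5 (1.14 to 2.26 FPKM in wild type and 1.87 to 3.48 in G799R) and Slc12a8 (0.450 to 0.683 and 0.575 to 1.71) were called higher as deposited, with overlap, but not under glomerular marker scaling (0.08 and 0.24).

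Among the members of many cell types, 2 fell. Slc12a7, the potassium-chloride cotransporter KCC4, which is also known from the proximal tubule and intercalated cells, stood at 15.1, 19.2, 15.4, 23.9 and 17.6 FPKM in wild-type libraries 1 to 5 and 7.34, 7.61, 7.19, 5.70 and 5.501 FPKM in G799R libraries 1 to 5. It was 2.74-fold lower without overlap (log2 difference −1.32 ± 0.13 (SE), limma adjusted p = 1.2e-05), opposite in direction to its relative Slc12a4 as deposited. Slc17a5, which encodes sialin, the lysosomal exporter of sialic acid, stood at 16.4, 17.1, 15.3, 17.8 and 15.8 FPKM in wild-type libraries 1 to 5 and 11.8, 8.72, 8.56, 7.96 and 9.76 FPKM in G799R libraries 1 to 5 and was 1.76-fold lower (limma adjusted p = 6.4e-05), also without overlap.

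The remaining tested members of this group were not called. Slc12a2, the cotransporter NKCC1 that brings chloride into many cells, varied widely within both groups, at 76.3, 85.3, 103, 44.9 and 50.7 FPKM in wild type and 104, 80.8, 65.3, 88.0 and 124 FPKM in G799R (limma adjusted p = 0.17). Slc12a9 stood at 5.25, 5.32, 5.36, 5.12 and 5.57 FPKM in wild type and 6.33, 5.33, 5.36, 5.86 and 6.11 FPKM in G799R (limma adjusted p = 0.23). Slc4a3, the anion exchanger AE3 known from heart and brain, stood at 4.28, 4.79, 4.41, 3.64 and 5.22 FPKM in wild type and 3.09, 4.01, 3.87, 4.83 and 4.75 FPKM in G799R (limma adjusted p = 0.46). Slc26a2, a sulfate carrier used for cartilage matrix, stood at 3.42, 3.26, 3.29, 3.44 and 3.07 FPKM in wild type and 4.51, 3.41, 3.89, 3.43 and 4.14 FPKM in G799R (limma adjusted p = 0.0932). Slc17a9, the vesicular nucleotide carrier, ran from 1.27 to 2.08 FPKM in wild type and from 1.61 to 2.58 FPKM in G799R. These 4 smaller genes overlapped between groups. Under glomerular marker scaling Slc12a9 (−0.49), Slc4a3 (−0.67) and Slc26a2 (−0.37) were called lower (limma adjusted p = 0.0027, 0.00066 and 0.020), as were 65.6% of all tested genes. Slc12a2 (−0.30) and Slc17a9 (−0.31) were not called under it.

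Of the 11 members known from nerve, muscle, testis or other tissues, 2 were tested. Slc12a5, the neuronal potassium-chloride cotransporter KCC2, stood at 4.02, 2.14, 3.08, 1.72 and 3.255 FPKM in wild type and 4.82, 3.06, 5.01, 3.82 and 4.27 FPKM in G799R and was called higher as deposited (log2 difference 0.46 ± 0.17 (SE), limma adjusted p = 0.0386), but stood at −0.07 under glomerular marker scaling and was not called under median-of-ratios scaling (0.32). The Slc12a5 call was lost with no filter on low values (adjusted p = 0.0619), and it did not hold without wild-type library 2 or 4, or without G799R library 1, 3, 4 or 5 (0.34 to 0.48, adjusted p from 0.051 to 0.091). Slc26a10 stood at 6.38, 2.19, 5.26, 2.03 and 1.82 FPKM in wild type and 4.58, 5.02, 2.34, 2.35 and 2.65 FPKM in G799R and was not called (limma adjusted p = 0.95). Its mean was slightly lower and its mean log2 value slightly higher in G799R, and 17.8% of its exon bases overlap B4galnt1.

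The 18 members below the filter include 4 whose groups did not overlap, and these were not tested. The share without overlap among all genes below the filter was not computed, so whether this count is unusual is not known. Slc4a11 was at 0.342 to 1.56 FPKM in wild type and 0.044 to 0.297 FPKM in G799R, and Slc13a4, a sulfate carrier, at 0.414 to 1.04 and 0.052 to 0.182 FPKM. The lung and gut phosphate cotransporter Slc34a2 was at 0.176 to 0.902 and 0.065 to 0.142 FPKM, and the other of the 4 is Slc9a4, described above. In all 4 the G799R values lay below the wild-type ones. Slc9a7 overlapped, at 0.283 to 0.589 and 0.254 to 0.726 FPKM. Slc26a3, Slc17a6 and Slc26a9 were listed at 0 in every library. The highest value of any library among the other 10 was 0.436 FPKM, for the vesicular glutamate carrier Slc17a7, and these 10 were Slc17a2, Slc13a5, Slc4a10, Slc4a5, Slc26a8, Slc8a2, Slc17a7, Slc8a3, Slc17a8 and Slc26a5.

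Genes that control or serve these transporters were read from a list of 38 regulators and partners: kinases and ubiquitin ligase parts of the WNK pathway, receptors of phosphate hormones, carbonic anhydrases, the sodium pump, basolateral channels, scaffolds and transcription factors. All 38 were tested, and 28 were called lower, 5 higher and 5 neither, with a median log2 difference of −1.50. Among all tested genes 19.3% were called lower and 40.5% higher, so higher calls were scarcer in this list than in the whole table. Hnf4a and Kcnj1 are also in the marker lists above. The 6 lower genes with the smallest p were Kcnj16, a basolateral potassium channel subunit (5.69-fold), the carbonic anhydrases Car14 (8.75-fold), Car12 (4.87-fold) and Car2 (6.74-fold), the transcription factor Hnf4a (7.56-fold) and the scaffold Pdzk1 (7.29-fold). The 5 called higher were the FGF receptor Fgfr1 (1.57-fold), the kinase Oxsr1, which activates Slc12a1 and Slc12a3 proteins (1.297-fold), the aldosterone-induced kinase Sgk1 (1.53-fold), the kinase adaptor Cab39 (1.19-fold) and the membrane linker Ezr (1.21-fold). Under glomerular marker scaling 35 of the 38 were called lower and 0 higher, against 65.6% and 3.99% of all tested genes. All 5 genes called higher as deposited turned to negative log2 differences, from −0.44 for Cab39 to −0.05 for Fgfr1.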

How the data were processed

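The authors deposited 1 table of FPKM values for 22053 Ensembl gene identifiers and 10 libraries of mouse kidney glomeruli, 5 per genotype. The tools named, per the submitters' processing notes, are HISAT2, RSEM, StringTie 1.3.1, Bowtie2 2.2.8 and fastp 0.18.0, with no role or order, and a genome build and annotation were not given in the sources used here. Columns were matched to libraries through each library's own label, and 0 columns belonged to other samples. No 2 libraries were identical. Symbols, found for 21963 identifiers, and positions came from GENCODE M21 (GRCm38), which may differ from the build the authors used.

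Here FPKM was transformed to log2(FPKM + 1), genes averaging 0.5 FPKM or more were kept, and limma-trend (limma 3.58.1, R 4.3.3) compared the genotypes without covariates, with Benjamini-Hochberg adjustment over 13117 genes and a threshold of 0.05. The pseudocount understates changes of low genes. Folds are ratios of mean FPKM. Relative depth, read from the steps of low values, was 0.99 to 1.19 times that of wild-type library 1 in the wild-type libraries. In the G799R libraries it was 0.860 to 1.03 times that library, so depth tended to be lower in G799R. Total counts are unknown, so no counting interval was computed. The fit was tested on simulated data with all 13117 genes of this comparison, of which 200 were altered. It recovered 46.3%, 80.6% and 95.5% of genes altered by 1.5-fold, 2-fold and 4-fold, and 8 of its 156 calls were false. In the real comparison 40.5% of genes were called higher and 19.3% lower, so these rates need not hold for it.

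The members, the segment groups, the marker lists (proximal tubule, thick ascending limb, macula densa, distal convoluted and connecting tubule, intercalated, principal, podocyte, endothelial, mesangial, red blood cell) and the list of regulators were chosen with earlier results of these data known. The macula densa list had 2 tested genes, neither called, and got no score. Any member may be named, members with a mean of at least 2 FPKM are given in every library, and of the regulators up to 6 of smallest p in each direction are named. Alternatives were other pseudocounts, filters, scalings and limma settings, a replicate block, other marker choices and leaving out libraries, and an exact permutation test added after seeing the data. Values of some members and markers are not reported here, and counts include them.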

Additional observations from a re-analysis of the deposited data

Results flagged for a closer look

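Of the 92 groups of 5 libraries formed by the 46 tested members, 3 held a value whose gap to the nearest other library took up more than 0.71 of the range of the group, Dixon's limit for 5 values. Chance flags about 5% of groups. Slc12a3, the thiazide-sensitive cotransporter, stood at 15.8 FPKM in G799R library 4, against 61.3 to 79.3 FPKM in the other 4 libraries, and in the same library Umod, a thick ascending limb marker, was at 50.7 FPKM, against 157 to 186 FPKM. Slc17a4 stood at 0.471 FPKM in G799R library 2, above 0.042 to 0.142 FPKM in the others. Slc26a6 stood at 3.04 FPKM in G799R library 1, above 1.70 to 2.08 FPKM in the others, and without this library it was called lower (log2 difference −0.42, limma adjusted p = 0.0161).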

How the results depend on the processing

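Counts of members depended on scaling. Median-of-ratios scaling left 7 members higher and glomerular marker scaling 1, and for all genes 3055 and 523 were higher, with 8606 lower under the latter. Glomerular marker scaling reversed the sign of Slc9a3r2 (−0.036), Slc20a1 (−0.32), Slc12a5 (−0.074), Slc4a1ap (−0.38), Slc26a2 (−0.37), Slc12a2 (−0.30), Slc12a9 (−0.49), Slc26a10 (−0.48), Slc4a2 (−0.47), Slc17a9 (−0.31), Slc26a7 (−0.40) and Slc4a8 (−0.30). Median-of-ratios scaling reversed Slc12a9 (−0.049) and Slc26a10 (−0.10). By construction, setting the glomerular markers equal takes their common rise from every gene. Without G799R libraries 3 and 4 Slc26a11 turned to 0.035.

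Relative to segment markers, 1 member was lower with either set of alternate markers and 5 by the exact permutation test. At a pseudocount of 1, 11 were higher and 3 lower, with Slc34a3 (0.60, limma adjusted p = 0.0318) and Slc13a2 (0.59, limma adjusted p = 0.0250) called higher and Slc34a1 lower. Other differences changed sign without a call: Slc9a3 (−0.0056), Slc4a9 (0.31) and Slc4a1 (0.21) with the even-numbered markers, Slc9a2 (0.069) with the odd-numbered ones, Slc34a3 at a pseudocount of 0.5 (0.27) and Slc4a1 at a pseudocount of 1 (0.025); the cause was not tested.

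Leaving out each library in turn gave ranges of −0.12 to 0.23 for Slc26a10 and −0.033 to 0.34 for Slc26a7, and relative to segment markers −0.057 to 0.077 for Slc9a3, −0.37 to 0.0037 for Slc34a3, −0.11 to 0.049 for Slc4a9 and −0.26 to 0.0036 for Slc4a1. The log2 ratio of Slc12a3 to Slc12a1 ran from 0.53 to 0.94 and that of Slc34a1 to Slc12a1 from −0.28 to 0.063.

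Libraries of the 2 genotypes with the same number did not deviate together (correlations −0.085 to 0.048, and 0 of 10 libraries correlated best with its own number). With the number as a replicate block, 10 members were called higher and 24 lower: Slc4a2 lost its call, and Slc20a2 and Slc26a6 gained one. Depth limits the members under 0.5 FPKM, which were not tested.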
